A study of Homo sapiens with 4 samples.

Results

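Semaphorins are secreted or membrane-bound guidance proteins, plexins are their main cell-surface receptors, and neuropilins are co-receptors that bind the secreted class 3 semaphorins and also members of the vascular endothelial growth factor (VEGF) family. When a semaphorin binds, the inside part of a plexin acts on small GTPases, which changes the actin cytoskeleton and the attachment of the cell to its surroundings. The system was first known from axon guidance, and in carcinoma cells its members are studied for migration, invasion and growth of blood vessels. The genes described here are the protein-coding rows of the deposited table with a symbol of semaphorin classes 3 to 7, of plexins A to D, or NRP1 or NRP2. There were 31 such genes among the 63677 rows: 20 semaphorins, 9 plexins and 2 neuropilins. The rule uses gene names and types and no measured difference between the groups. It was chosen with earlier results of these data known, so shares set beside those of all genes are descriptions.

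All RNA came from MDA-MB-231, an established human cell line from a triple-negative breast cancer. The siCt group was transfected with a control siRNA and the siAxl group with a pool of siRNAs against AXL, a receptor tyrosine kinase, with 2 libraries each. Every cell therefore went through transfection, and the knockdown lowered AXL without deleting it. Neither the labels nor the methods say whether the 2 libraries of a group came from separate cultures, so that p-values measure the spread between these libraries, which may be technical.

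AXL itself had 29188.6 and 30616.8 normalized counts in the siCt libraries and 8658.5 and 7140.6 in the siAxl libraries, which left 26.4% of the siCt mean. Normalized counts are the reads of a gene divided by the size factor of its library. The libraries held between 39574387 and 44585773 reads. The line's mesenchymal markers VIM and CD44 were abundant, at 86751.4 or more and 33967.7 or more, and the hormone receptor genes ESR1 and PGR had 3 reads or fewer per library. ERBB2, which is low in protein in triple-negative tumours, had 2949.3 to 3680.0 normalized counts. EGFR, high in this line, had 7354.7 and 7136.0 in siCt and 12921.2 and 15003.5 in siAxl, and the epithelial gene CDH1 had 90.1 and 94.3 in siCt and 36.9 and 22.6 in siAxl. Of 5 markers of leukocytes, endothelial cells and neurons, PECAM1 was at 0 and CDH5 at 1 read or less in every library. The 5 summed to 622.3 and 582.9 in siCt and to 733.3 and 706.5 in siAxl, most of it the neuronal TUBB3 (451.8 to 602.2) and SYT1 (101.6 to 123.8), with the leukocyte gene PTPRC at 7.77 to 16.7, and their part in the results below was not tested.

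SEMA3A, SEMA4B and PLXNB1 were the members whose rise in siAxl, given below, passed the test with all libraries and also with any 1 library left out. A fit without 1 library leaves 1 library in a group, so the spread of that group is not measured. Passing or failing such a fit is therefore no measure of how stable a call is. The RefSeq promoter table used here covered 27 of the 31 members, with 48 windows of 300 bases in all. The windows of SEMA4B and PLXNB1 are shown 5′ to 3′ on the strand of the gene, as RefSeq gives them on GRCh38.p14, with GC boxes (GGGCGG or its reverse complement CCGCCC) in capitals.
SEMA4B, chr15:90184670-90184969, plus strand: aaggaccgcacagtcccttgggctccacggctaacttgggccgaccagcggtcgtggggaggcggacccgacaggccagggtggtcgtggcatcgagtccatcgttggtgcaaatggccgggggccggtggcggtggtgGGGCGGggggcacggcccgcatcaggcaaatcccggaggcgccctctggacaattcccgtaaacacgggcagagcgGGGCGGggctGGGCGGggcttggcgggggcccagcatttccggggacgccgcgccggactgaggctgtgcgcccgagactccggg
SEMA4B, chr15:90191671-90191970, plus strand: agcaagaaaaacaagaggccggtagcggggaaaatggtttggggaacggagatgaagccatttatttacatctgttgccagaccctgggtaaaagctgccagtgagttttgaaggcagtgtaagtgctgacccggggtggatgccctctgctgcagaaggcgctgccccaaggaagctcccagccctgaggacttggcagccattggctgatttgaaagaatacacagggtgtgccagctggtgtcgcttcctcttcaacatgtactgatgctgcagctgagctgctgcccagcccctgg
SEMA4B, chr15:90201080-90201379, plus strand: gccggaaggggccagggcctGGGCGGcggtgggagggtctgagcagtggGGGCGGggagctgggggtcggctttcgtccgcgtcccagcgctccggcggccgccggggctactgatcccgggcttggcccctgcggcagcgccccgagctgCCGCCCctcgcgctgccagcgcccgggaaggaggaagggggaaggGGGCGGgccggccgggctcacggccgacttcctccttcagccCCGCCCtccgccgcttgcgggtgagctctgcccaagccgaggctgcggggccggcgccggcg
PLXNB1, chr3:48429295-48429594, minus strand: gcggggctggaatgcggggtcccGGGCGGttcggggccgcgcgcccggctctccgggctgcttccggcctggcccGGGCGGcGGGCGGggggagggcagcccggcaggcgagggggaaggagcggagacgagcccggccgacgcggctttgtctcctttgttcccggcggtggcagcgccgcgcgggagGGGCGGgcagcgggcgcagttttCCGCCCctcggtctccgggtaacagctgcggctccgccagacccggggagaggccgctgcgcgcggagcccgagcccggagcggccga
PLXNB1, chr3:48430037-48430336, minus strand: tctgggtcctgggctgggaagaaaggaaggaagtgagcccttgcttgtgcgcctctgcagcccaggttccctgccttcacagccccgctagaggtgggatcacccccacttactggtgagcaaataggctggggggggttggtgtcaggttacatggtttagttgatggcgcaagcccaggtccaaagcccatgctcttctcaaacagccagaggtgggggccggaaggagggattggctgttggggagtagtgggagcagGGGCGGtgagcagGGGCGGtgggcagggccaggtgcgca
The first and last SEMA4B windows hold 3 and 5 GC boxes and the middle one none, and the PLXNB1 windows hold 5 and 2. A GC box was present in 64.6% of the members' windows and in 45.0% of all 35116 windows of the table. The core of the hypoxia response element (ACGTG or GCGTG, both strands) was present in 37.5% of the members' windows and in 48.4% of all. The AP-1 letters TGACTCA, or the reverse complement TGAGTCA, were in none of the 48 and in 4.95% of all. Some genes have several windows, and some of these overlap, so windows are not separate units and the shares were not tested. A match is a run of letters and not a bound site, and RNA levels do not show which of several starts was used.

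Of the 31 genes, 28 had enough reads to be tested, and 10 of them (35.7%) were higher in siAxl: 6 semaphorins and 4 plexins. Across all 16064 genes tested, 10.8% were higher in siAxl and 7.91% lower by the same test, limma on log2(normalized count + 1) with a Benjamini-Hochberg adjusted p under 0.05. No member was called lower, by limma, by edgeR (7.92% of all genes lower) or by DESeq2 (8.57%), and 1 of them, SEMA3C, was lower at an unadjusted p under 0.05. With edgeR 10 members were higher, against 11.5% of all genes. With DESeq2 7 of the 23 members that it gave an adjusted p were higher, also against 11.5%. In 23 of the 28 members (82.1%) both siAxl libraries were above both siCt libraries, against 30.6% of all genes tested. In 3 members, SEMA3C, PLXNA1 and PLXNA2, both lay below, against 30.5%, and the libraries of NRP2 and PLXND1 overlapped. The median log2 fold change, siAxl over siCt, was 0.36 over the 28 members and -0.00218 over all genes tested. Without the library siAxl 1, 3 members were called, SEMA3A, SEMA4B and PLXNB1, and calls over all genes in both directions went from 3006 to 1301 of 16064. When every gene with at least 1 read was tested, 2 members were called, SEMA3A and SEMA4B, and 1097 of 27108 genes in all.

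**Figure D1:**
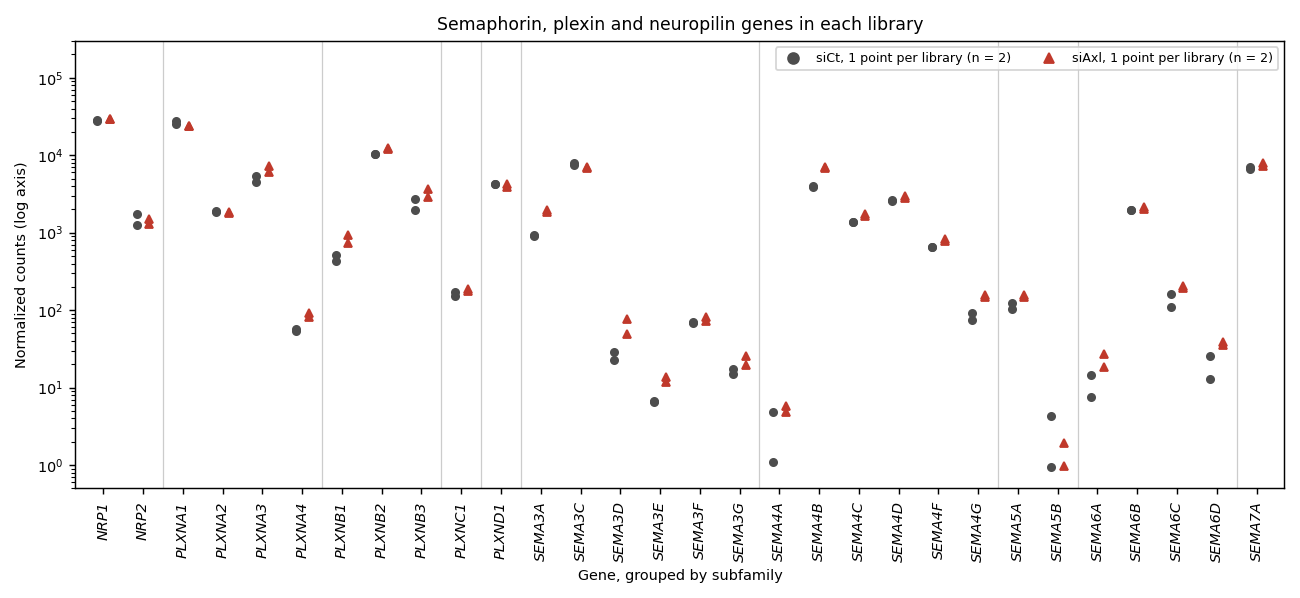
Normalized counts (vertical, log axis) of the 30 members with any read, grouped by subfamily, with 1 point per library (grey circles, siCt; red triangles, siAxl; n = 2 each). The level runs from about 1 count for SEMA5B to 29679.7 for NRP1, and the red pair lies above the grey pair for most genes.

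**Figure D2:**
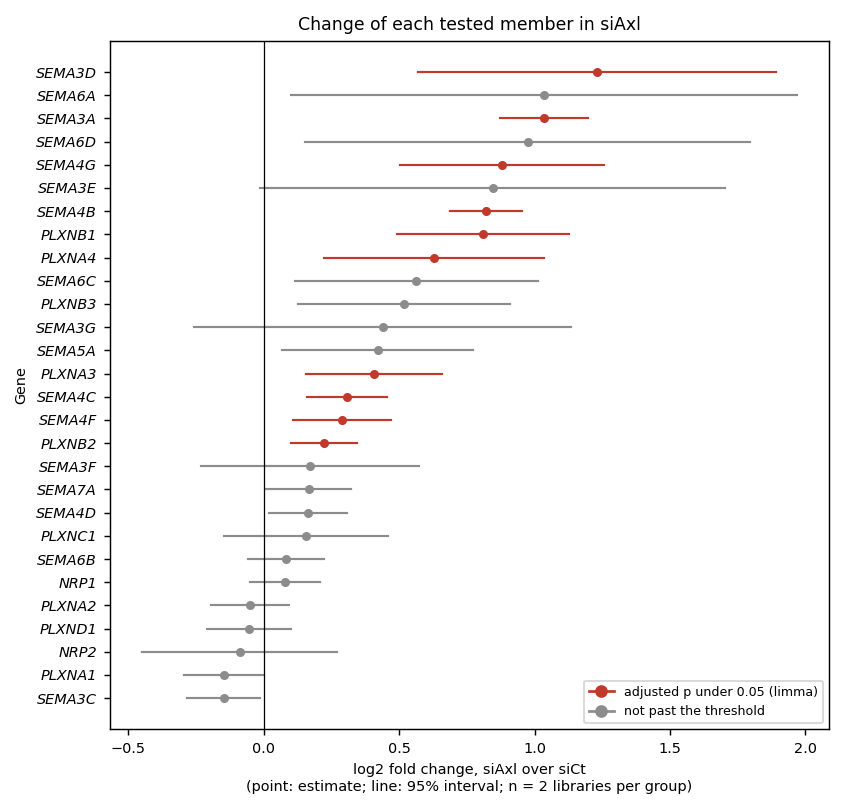
Log2 fold change of siAxl over siCt (horizontal) for the 28 tested members, with the 95% interval as a line and n = 2 libraries per group. The 10 red genes passed the limma test and all lie to the right of 0, and the widest intervals belong to SEMA6A, SEMA3E, SEMA6D and SEMA3G, genes with few reads.

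Class 3 semaphorins are secreted and signal through neuropilins with A-type plexins, with SEMA3E known for binding PLXND1 directly. SEMA3A, the classical repellent of axons, had 903.3 and 939.4 normalized counts in siCt and 1946.3 and 1833.5 in siAxl. The groups did not overlap, and the mean was 2.05 times higher in siAxl. The log2 fold change was 1.03 (SE 0.0684, limma adjusted p = 0.00113), and it stayed between 0.99 and 1.08 with any 1 library left out. SEMA3D, a gene with few reads, had 28.8 and 22.8 in siCt and 76.7 and 49.1 in siAxl. Both siAxl libraries were higher but differed from each other. Its log2 fold change was 1.23 (SE 0.28, adjusted p = 0.0259), and without siAxl 1 it was 0.91 and no longer passed.

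SEMA3C was by far the most expressed class 3 gene. It had 7532.1 and 8014.7 normalized counts in siCt and 7082.2 and 6934.3 in siAxl, so that both siAxl libraries were slightly lower. The log2 fold change of -0.15 (95% interval -0.28 to -0.01) did not pass (limma adjusted p = 0.113). The sum of the class 3 members differed little between the groups, at 8556 and 9068 in siCt and 9219 and 8929 in siAxl. This sum leaves out a SEMA3B row that is no member, given below, which had 1142.0 to 1588.0 normalized counts. The share of SEMA3C in the sum of the members alone was 88.2% ± 0.251 (SD, n = 2) in siCt and 77.2% ± 0.592 in siAxl. SEMA3E, SEMA3F and SEMA3G had between 6.5 and 82.6 normalized counts and log2 fold changes of 0.85, 0.17 and 0.44 with adjusted p of 0.153, 0.536 and 0.347 by limma.

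SEMA3B had no reads on its protein-coding row in any library. Counting error allows that row up to 3 reads per library (2.88 to 3.25 normalized counts). This sets no bound on the level of the gene, whose reads lay on another row. The table holds a second SEMA3B row, of the type processed transcript and therefore not counted as a member. That row had 1364.5 and 1142.0 normalized counts in siCt and 1588.0 and 1241.0 in siAxl. The groups overlapped, with a log2 fold change of 0.17 (adjusted p = 0.419 by limma).

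Class 4 semaphorins are membrane proteins, and SEMA4D among them is known for binding PLXNB1. In this class 4 of the 5 tested genes rose, against 10.8% of all genes tested. This was the highest share of any class with more than 1 tested gene. SEMA4B had 4012.9 and 3879.0 normalized counts in siCt and 6812.2 and 7123.9 in siAxl. The groups lay far apart beside the spread within them, and the mean was 1.77 times higher in siAxl. Its log2 fold change was 0.82 (SE 0.0559, adjusted p = 0.00113), and between 0.79 and 0.85 with any 1 library left out. SEMA4C, a ligand of PLXNB2, had 1380.8 and 1366.3 in siCt and 1735.6 and 1665.5 in siAxl. This was a small difference with close replicates, 0.31 on the log2 scale (SE 0.0628, adjusted p = 0.0186), which did not pass when either siAxl library was left out. SEMA4F had 654.0 and 662.0 in siCt and 828.5 and 781.2 in siAxl, with a log2 fold change of 0.29 (SE 0.077, adjusted p = 0.0413). The call of SEMA4F was lost whichever library was left out, and in DESeq2 (adjusted p = 0.0922).

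SEMA4G had 91.1 and 74.8 normalized counts in siCt and 157.3 and 148.4 in siAxl. The groups did not overlap, and the log2 fold change was 0.88 (SE 0.16, adjusted p = 0.0129), but without siAxl 1 it did not pass. SEMA4G shares 1170 exon bases with MRPL43, a mitochondrial ribosomal protein gene on the opposite strand with far more reads (a mean of 2144.2 per library against 119.2). Whether reads were counted by strand is not given in the sources used here, so how reads in the shared bases were counted is not known. MRPL43 had a log2 fold change of -0.01 (adjusted p = 0.91). SEMA4D itself had 2536.3 and 2622.1 in siCt and 2806.8 and 2970.4 in siAxl, which did not overlap but missed the adjusted threshold (0.16 on the log2 scale, 95% interval 0.02 to 0.31, adjusted p = 0.104). SEMA4A had 1 to 6 reads per library and was not tested.

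The class 4 genes together had 8680 and 8605 normalized counts in siCt and 12346 and 12694 in siAxl, a ratio of 1.45. SEMA4B made up 45.6% ± 0.818 (SD, n = 2) of that sum in siCt and 55.6% ± 0.667 in siAxl. With 2 libraries against 2, an exact permutation test of a single sum cannot give a two-sided p below 0.333, so the sums are given as levels alone.

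Classes 5 and 6 are membrane semaphorins, of which the class 6 genes bind A-type plexins, and SEMA7A is held to the membrane by a lipid anchor and acts through integrins and PLXNC1. None of their 6 tested genes passed the test. In all 6 both siAxl libraries were nonetheless above both siCt libraries, against 30.6% of all genes tested. SEMA6A had 14.4 and 7.58 normalized counts in siCt and 27.2 and 18.7 in siAxl, and SEMA6D 25.9 and 13.0 in siCt and 35.9 and 38.3 in siAxl. The siCt libraries of each gene differed widely from each other, and the log2 fold changes of 1.03 and 0.97 had adjusted p of 0.114 and 0.0959 by limma. SEMA6A shares 268 exon bases with SEMA6A-AS1 on the opposite strand, which had a mean of 24.8 reads per library against 17.2. How reads in these shared bases were counted is not known either. SEMA6C (0.56, adjusted p = 0.0826) and SEMA5A (0.42, adjusted p = 0.0937) also missed the threshold. SEMA6B, the main class 6 gene, was nearly level, with 1967.6 and 1956.8 in siCt and 2030.8 and 2122.4 in siAxl. SEMA7A had 6619.2 and 6965.9 in siCt and 7248.3 and 7996.5 in siAxl, with a log2 fold change of 0.16 (95% interval 0.01 to 0.32, adjusted p = 0.13). SEMA5B had 1 to 4 reads per library and was not tested.

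Among the plexins, the B type, which includes receptors of class 4 semaphorins, had 2 of 3 genes called higher, against 10.8% of all genes tested. PLXNB1 had 520.7 and 435.6 normalized counts in siCt and 937.2 and 744.8 in siAxl. The replicates of each group differed, but the lower siAxl library was above the higher siCt library, and the log2 fold change was 0.81 (SE 0.135, adjusted p = 0.00982). It lay between 0.64 and 0.98 with any 1 library left out. PLXNB2 had 10472.0 and 10401.7 in siCt and 12309.3 and 12063.5 in siAxl. This was the smallest called change, 0.22 on the log2 scale (SE 0.0516, adjusted p = 0.0272), and its call was lost whichever library was left out, although its value stayed between 0.21 and 0.24. PLXNB3 had 2689.7 and 1942.7 in siCt and 3711.1 and 2887.9 in siAxl. The libraries numbered 1 were the higher in both groups, and the log2 fold change of 0.52 did not pass (SE 0.167, adjusted p = 0.0723). The fold change of PLXNB3 lay between 0.28 and 0.75 with any 1 library left out. PLXNB3 shares 1432 exon bases with SRPK3, which had a mean of 13.8 reads per library.

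A-type plexins carry the signal of class 3 semaphorins bound to neuropilins and of class 6 semaphorins. PLXNA1 was the most abundant plexin, with 25339.6 and 27549.4 normalized counts in siCt and 23757.2 and 23987.5 in siAxl. Both siAxl libraries were lower, by -0.15 on the log2 scale, and the difference missed the threshold (95% interval -0.29 to 0.000419, limma adjusted p = 0.148). PLXNA3, a receptor for SEMA3F, had 5413.9 and 4541.0 in siCt and 7146.3 and 6049.9 in siAxl. Here the groups did not overlap, and the log2 fold change was 0.41 (SE 0.106, adjusted p = 0.0387), lost without siAxl 1. PLXNA4, a receptor for SEMA3A, had 57.5 and 54.2 in siCt and 82.6 and 91.4 in siAxl, a log2 fold change of 0.63 (SE 0.173, adjusted p = 0.0457). Its call was lost in 3 of the 4 fits with 1 library left out, all but the one without siCt 1, and in DESeq2 (adjusted p = 0.205). PLXNA2 was nearly level at 1774.4 to 1892.9 in the 4 libraries.

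PLXND1, the receptor of SEMA3E, had 4214.3 and 4282.0 normalized counts in siCt and 4310.3 and 3883.3 in siAxl, and the groups overlapped. PLXNC1, the receptor of SEMA7A, had 153.9 to 185.5 across the libraries (0.16 on the log2 scale, adjusted p = 0.443 by limma). It shares 177 exon bases with CEP83 on the opposite strand, which had a mean of 765.2 reads per library against 173.0 for PLXNC1. The summed normalized counts of the B type were 13682 and 12780 in siCt and 16958 and 15696 in siAxl, and those of the A type were 32684 and 34037 in siCt and 32760 and 31987 in siAxl.

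The neuropilins did not pass the test in either direction. NRP1 had 27690.8 and 28415.1 normalized counts in siCt and 29679.7 and 29564.8 in siAxl, a log2 fold change of 0.08 (95% interval -0.05 to 0.21, adjusted p = 0.362 by limma). NRP2 had 1257.1 and 1744.5 in siCt and 1284.9 and 1507.3 in siAxl. Its siCt libraries differed more from each other than the groups did, and the log2 fold change of -0.09 had a 95% interval of -0.45 to 0.27. The log2 fold change of NRP2 was -0.33 without siCt 1 and 0.15, above 0, without siCt 2.

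**Figure D3:**
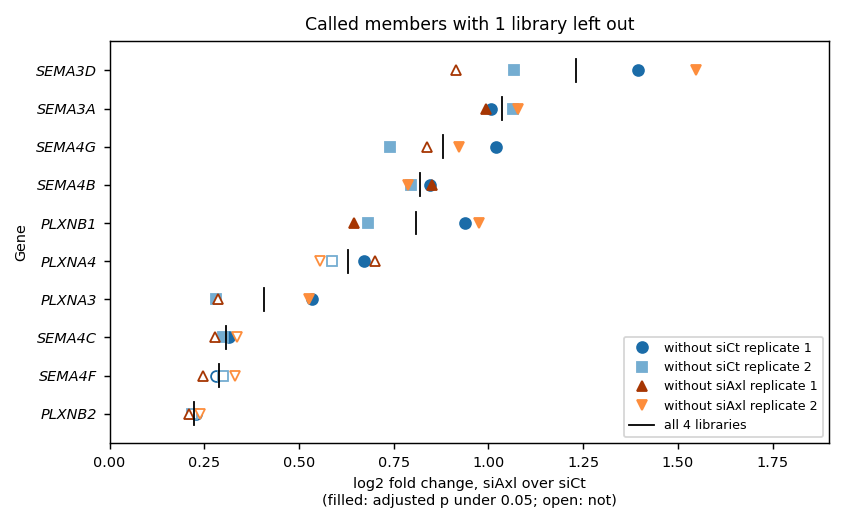
Log2 fold change of siAxl over siCt (horizontal) for the 10 called members in the fits with 1 library left out (coloured symbols, filled where the limma adjusted p was under 0.05) and with all 4 libraries (black bar). Every symbol lies above 0. The fits with 1 library left out have 1 library in a group, whose spread is not measured, so the filling does not measure stability.

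To compare levels between genes, normalized counts were divided by the merged exon length of the gene in kilobases. That length joins the exons of all annotated transcripts and can exceed the RNA made in these cells, so orders between genes are approximate. On this scale NRP1 and PLXNA1 were at the top in siCt, at 2435 and 2416 per kilobase. SEMA7A followed at 1788, PLXNB2 at 1438 and SEMA3C at 1240, and SEMA4B came sixth at 563. In siAxl, SEMA4B stood at 995 per kilobase and SEMA3C at 1118, still in the same order. SEMA3A moved from 98.3 to 202, past SEMA4F, NRP2 and PLXNA2, whose levels in siAxl were 129, 100 and 132 per kilobase. PLXNB1, at 49.1 and 86.4, remained the lowest of the B-type plexins, below PLXNB2 (1438 and 1679) and PLXNB3 (331 and 471). The rises thus lay over a wide range of levels, from PLXNA4 and SEMA3D at 3.41 and 3.19 per kilobase in siCt up to PLXNB2.

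**Figure D4:**
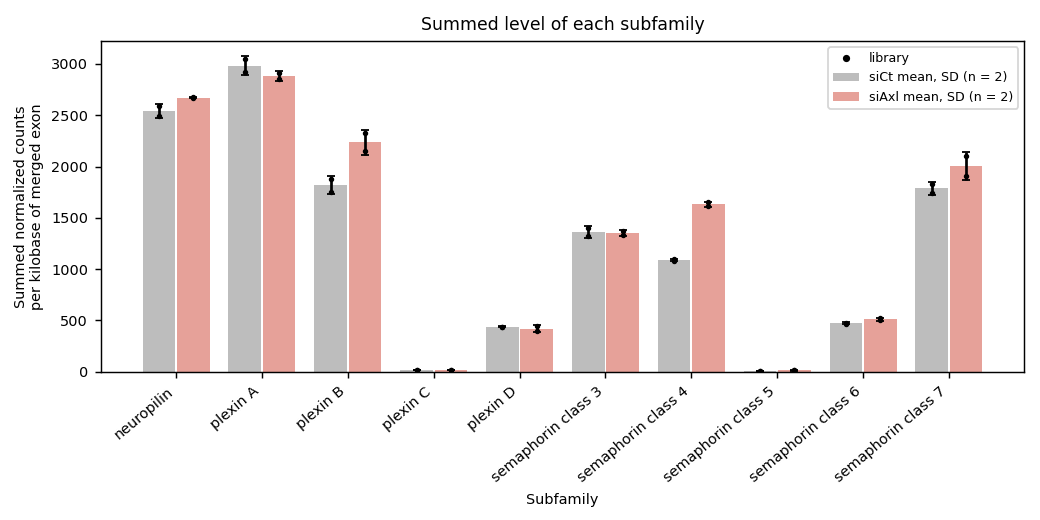
Summed normalized counts per kilobase of merged exon (vertical, from 0) of each subfamily, as bars for the mean of 2 libraries with the SD and a dot per library (grey, siCt; red, siAxl). Class 4 semaphorins go from 1090 to 1634 and B-type plexins from 1818 to 2237, while class 3 semaphorins stand at 1360 and 1350. The class 3 bars leave out the SEMA3B row that had reads.

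The 7-base word CACATCA in 3′ UTRs was looked at because an earlier re-analysis of this table, not the study, had picked it out, so that its share among the higher genes is a description. It was present in 24.0% of the 1667 genes called higher that have a 3′ UTR in the annotation, and in 11.6% of the 12985 tested genes with one. Among the 28 tested members it was present in 3 (10.7%), and in none of the 10 that were called. The sites of SEMA6A and SEMA6C are shown with their surroundings, as copies of the word in tested members, with the word in capitals and written 5′ to 3′.
SEMA6A: ttttagaatggCACATCAtatctcattga
SEMA6C: acttgaagttcCACATCAgaaaa
The SEMA6C site ends 5 bases before the end of the transcript. The third gene with the word was SEMA5A, and none of these 3 genes passed the test.

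The wider pathway was described from 70 genes listed by role, of which 57 were tested, 17 were higher and 5 lower in siAxl, against the same 10.8% and 7.91% of all genes. The median log2 fold change of the 57 was 0.16. These lists were made with earlier results of these data known, so their shares are descriptions too. Of 11 tested co-receptors and other semaphorin receptors, 6 rose and none fell. PTK7, a pseudokinase that associates with plexins, had 1580.2 and 1534.3 normalized counts in siCt and 2235.8 and 2206.0 in siAxl (log2 fold change 0.51, SE 0.0597, adjusted p = 0.00334). MET, the receptor tyrosine kinase that couples to B-type plexins, had 12719.7 and 13271.9 in siCt and 17178.1 and 19285.7 in siAxl (0.49, SE 0.0699, adjusted p = 0.00611). L1CAM, the adhesion molecule that serves SEMA3A signalling beside NRP1, had 2526.7 and 2303.5 in siCt and 3920.8 and 3275.0 in siAxl (0.57, SE 0.0946, adjusted p = 0.00965). These calls of PTK7, MET and L1CAM held without any 1 library. When every gene with at least 1 read was tested, L1CAM lost its call (limma adjusted p = 0.0551), and PTK7 and MET kept theirs. CSPG4 (0.40, adjusted p = 0.0286), ITGA1 (0.37, adjusted p = 0.0308) and ERBB2 (0.26, adjusted p = 0.0258), which also couples to B-type plexins, rose by less. ERBB2 lost its call in 3 of the 4 fits with 1 library left out, CSPG4 without either siAxl library and ITGA1 without siAxl 2.

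Among 6 tested VEGF receptors, VEGF-family ligands and other partners of neuropilins, VEGFC alone passed, while 10.8% of all genes tested were called higher. VEGFC had 3676.4 and 3216.9 normalized counts in siCt and 4511.4 and 4225.2 in siAxl (log2 fold change 0.34, SE 0.0776, adjusted p = 0.0252). That call was lost without siAxl 1 and when every gene with at least 1 read was tested (limma adjusted p = 0.0937). Of 6 tested proteases that cut semaphorins or release them from the membrane, 4 rose and none fell, against 10.8% and 7.91% of all genes tested. FURIN, the convertase that processes class 3 semaphorins, had 2748.2 and 2747.8 in siCt and 4085.0 and 4296.0 in siAxl (0.61, SE 0.0568, adjusted p = 0.0021). MMP14, which can shed SEMA4D, rose from 46696.9 and 43508.4 to 61632.1 and 63145.4 (0.47, SE 0.0644, adjusted p = 0.00528). ADAM17 rose as well (0.35, adjusted p = 0.00947), and the fourth was ADAM10 (0.26, adjusted p = 0.0344), which the naming rule had left out and which is given to complete the count.

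Among the genes listed downstream of plexins, calls went in both directions. Of 18 tested GTPases and their regulators, 4 rose (22.2%, against 10.8% of all genes tested) and 2 fell (against 7.91%). RRAS, the Ras-family GTPase that plexins switch off, had 1905.3 and 1602.5 normalized counts in siCt and 2806.8 and 2956.7 in siAxl (log2 fold change 0.72, SE 0.0893, adjusted p = 0.00387). RAC1 (0.30, adjusted p = 0.014) and the exchange factor TIAM1 (0.48, adjusted p = 0.0257) rose, while RND3, an atypical small GTPase, fell by 0.47 (adjusted p = 0.0123) and SH3BP1, a GTPase-activating protein, by 0.38 (adjusted p = 0.0215). The fourth that rose was MRAS (0.34, adjusted p = 0.0299), also outside the naming rule.

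Of 16 tested kinases and cytoskeletal effectors, 2 rose (12.5%, near the 10.8% of all genes tested) and 3 fell (against 7.91%). DPYSL3, of the collapsin response mediator family, had 342.3 and 277.4 in siCt and 816.8 and 700.6 in siAxl (log2 fold change 1.29, SE 0.13, adjusted p = 0.00237), and its relative DPYSL2 fell by 0.27 (adjusted p = 0.0169). CDK5, the kinase that phosphorylates DPYSL2 in SEMA3A signalling, had 1285.9 and 1404.2 in siCt and 977.1 and 920.7 in siAxl (-0.50, SE 0.0768, adjusted p = 0.00739), and its activator CDK5R1 fell by 0.38 (adjusted p = 0.0224). FYN, a kinase upstream of CDK5 in the same response, rose by 0.32 (adjusted p = 0.0216). RRAS, FURIN, MMP14, ADAM17, DPYSL3, CDK5 and RND3 kept their calls without any 1 library. The other called genes of the protease, GTPase and effector lists each lost theirs in at least 1 such fit, and ADAM10 and MRAS in 3 of 4. Of those that kept theirs, RND3 lost its call when every gene with at least 1 read was tested (limma adjusted p = 0.0631).

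**Figure D5:**
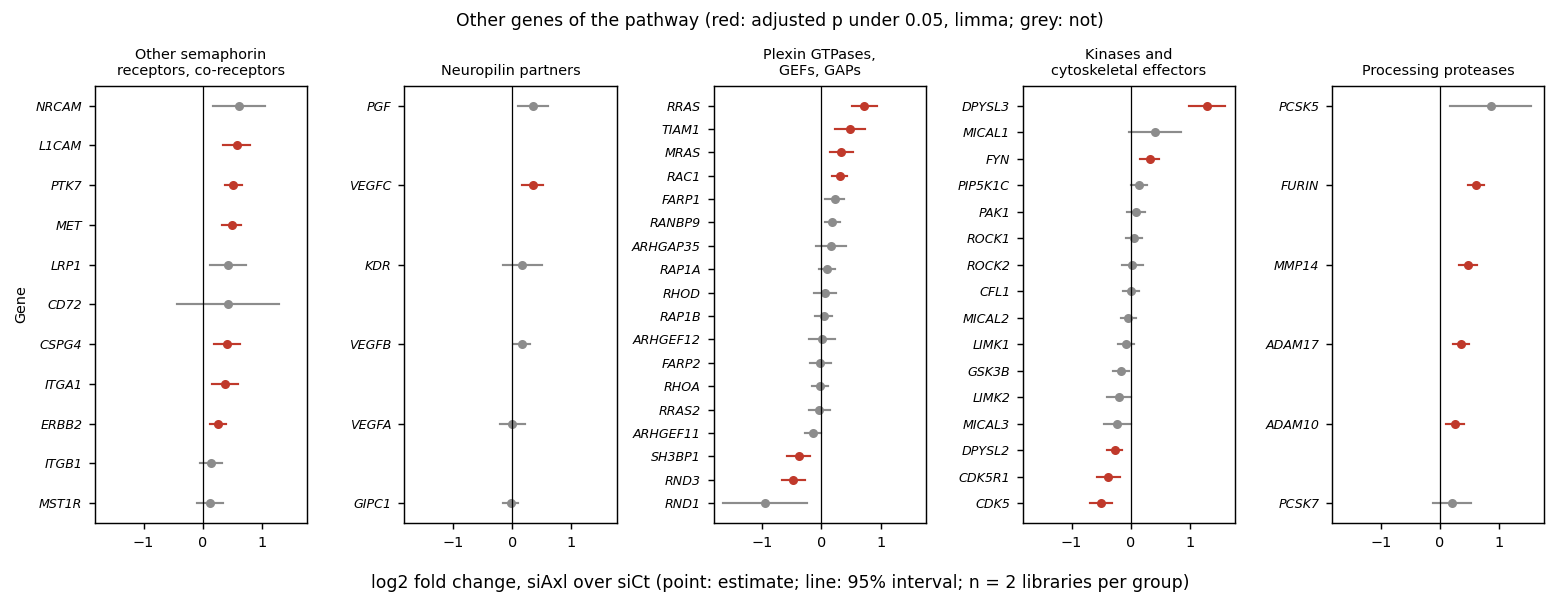
Log2 fold change of siAxl over siCt (horizontal) with 95% intervals for the 57 tested genes of the 5 pathway lists, n = 2 libraries per group, red where the limma adjusted p was under 0.05. Red points lie to the right of 0 alone in the receptor, neuropilin partner and protease panels, and on both sides in the GTPase and effector panels.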

How the data were processed

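RNA from 2 siCt and 2 siAxl libraries was sequenced by the authors. According to the submitters' processing notes they used CASAVA 1.8, TopHat2 2.0.10, HTSeq 0.5.3, DESeq2 1.4.5 and build GRCh37; the strand setting and annotation are not given in the sources used here. The values the authors deposited are a signal, reads per gene divided by the DESeq2 size factor. Their columns of fold changes, Wald statistics and p-values were not used, and 0 per-sample columns were left out. In each library 100% of values were whole multiples of 1 read within a tolerance of 0.1 read, so reads were recovered by division.

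Genes passing edgeR's filterByExpr (16064 of 63677) were tested on the scale log2(normalized count + 1) with limma (3.58.1, in R 4.3.3; lmFit, then eBayes with trend), and calls were made at 0.05 after Benjamini-Hochberg adjustment over every tested gene. The pseudocount makes fold changes of genes with few reads too small. The same fit was tested on simulated data. Alternatives were edgeR (4.0.16), DESeq2 (1.42.0), other pseudocounts, scalings and filters, a replicate block and leaving out each library. Exact intervals and floors cover counting error only. Libraries of a group differed beyond sampling noise (chi-square per gene 21.6 and 19.6). The members, pathway lists and tests were chosen with earlier results of these data known. Named genes were AXL, markers, all members, called co-receptors and neuropilin partners, and the 3 smallest adjusted p per direction in each other list. For repeated symbols the row with the highest mean was kept. GENCODE 29 (GRCh38) gave exon lengths, overlaps and the longest 3′ UTR per gene, by Ensembl identifier (52526 of 63677 matched); no coordinates of the table are given, since the builds differ. The sites of SEMA5A are not reported here.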

Additional observations from a re-analysis of the deposited data

How the results depend on the processing

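The count of 10 members higher in siAxl was 10 with either pseudocount, TMM scaling or edgeR and 7 with library size scaling (where PLXNA3, PLXNA4 and SEMA4F were lost) or DESeq2, but 2 when every gene with at least 1 read was tested (1097 calls over 27108 genes). Leaving out 1 library gave 3 to 12 (3 without siAxl 1, 7 without siAxl 2, 8 without siCt 2, 12 without siCt 1), and 0 to 1 lower, while calls over all 16064 genes were 1301, 1518, 2478 and 3900 in the same order. Of the other pathway genes, 7 were higher and 1 lower with the 1-read filter, and 10 to 21 higher and 3 to 7 lower with 1 library left out. The members' median of 0.36 was 0.32 with a pseudocount of 8 and 0.28 to 0.33 with 1 library left out. NRP2 ranged from -0.33 to 0.15 and PLXND1 from -0.13 to 0.021 (without siAxl 2). The cause of these shifts was not tested. Each fit with 1 library left out has 1 library in a group, whose spread is then not measured, so its calls do not measure stability. The labels number the libraries 1 and 2 in each group but do not say what a number marks. Across the tested genes, deviations from the group means correlated at 0.271 between same-numbered libraries. With 2 libraries per group both pairs give this same value. A fit with the replicate block called 18 members higher and 2 lower, SEMA3C and PLXNA1, and 30 and 10 of the other pathway genes, with 7310 calls over all genes in place of 3006. Of 583 values of 49 named genes under the alternatives, 506 kept direction and side of the threshold, 57 lost the call, 17 gained one and 3 changed sign. With 2 libraries per group the spread of a single gene is poorly known, and members with few reads had the widest intervals.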
